A study of Sus scrofa with 24 samples.

Results

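The 6 genes described here act in collagen folding, hydroxylation and procollagen processing and were followed in pig veins after placement of an arteriovenous haemodialysis graft: SERPINH1, FKBP10, P4HA1, P4HA2, PLOD2 and PCOLCE2. Their probes were found on the array by gene name, or through the accession, locus number or complete protein name that the array annotation gives for a probe. This gave 11 named probes of the 43603 different probes on the array, and 9 further probes whose description only partly matches a member's protein name and which are given apart. All 11 named probes were well above background in 24 of 24 samples and saturated in 0.

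The samples were total RNA of 3 sites: the venous anastomosis (the join of the graft to the vein), the segment of vein downstream of that join, and, as the control, the external jugular vein. Each site was sampled 14 days and 5 days after graft placement with 4 biological replicates, which gave 6 groups and 24 samples. The labels do not say which vein the graft was joined to, or on which side the control was taken, and they name no untreated animal. Strain, sex and age are not given in the sources used here, and neither is whether same-numbered samples of the 3 sites were taken from 1 animal. Every anastomosis and downstream sample was labelled in Cy5 and every control in Cy3, so dye and site cannot be told apart in a comparison with the control. Anastomosis and downstream samples shared a dye but not an array. The control and anastomosis samples of a number and day shared an array, while each downstream sample was on another array whose other channel had no labelled sample. Comparisons with the downstream vein are therefore between arrays.

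Collagen chains are folded and modified in the endoplasmic reticulum before secretion. Prolyl 4-hydroxylase, whose catalytic subunits are P4HA1 and P4HA2, hydroxylates prolines and so allows a stable triple helix, and lysyl hydroxylases such as PLOD2 hydroxylate lysines, those of the chain ends in the case of PLOD2, which sets the kind of crosslink that forms later. SERPINH1 is a collagen-binding chaperone and FKBP10 a prolyl isomerase that works beside it. PCOLCE2 acts outside the cell, where it enhances the protease that removes the C-terminal propeptide of procollagen. These enzymes are best known from scar tissue and from inherited bone and connective tissue disease.

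The probes are 60 bases long and read only their own stretch of the transcript, so a gene with several probes is measured more than once. The sequences below identify the probes that the values rest on, and 3 are shown whole.
SERPINH1 (A_72_P039471): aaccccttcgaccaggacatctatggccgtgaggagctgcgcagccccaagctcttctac
P4HA1 (A_72_P175781): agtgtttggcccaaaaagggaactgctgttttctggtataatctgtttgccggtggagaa
P4HA1 (A_72_P184041): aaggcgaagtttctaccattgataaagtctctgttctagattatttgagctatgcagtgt
The first 30 bases of 2 further P4HA1 probes show that they are nearly the same probe, with the bases they share in capitals, 55 in all over their full length.
P4HA1 (A_72_P302594): ctacGAAGCCAAAATGTTTGTTTTTGCAAT
P4HA1 (A_72_P174996): cctaaGAAGCCAAAATGTTTGTTTTTGCAA
The P4HA2 probe, named through its accession alone, shares a run of 17 bases, in capitals, with a probe that matches P4HA2 by part of a protein name (bases 21 to 50 of the one and 8 to 37 of the other). Most bases on both sides of that run match as well, so the probes are alike over a longer stretch than the capitals show.
P4HA2 (A_72_P428619): tatttcaaTGAACCAAAGTTCTGATacctt
partial name (A_72_P022091): gtttcagTGAACCAAAGTTCTGATtccttg
The first 30 bases of the probes of PLOD2, FKBP10 and PCOLCE2 identify the probes that the remaining values rest on.
PLOD2 (A_72_P243862): ttagggagggtgatttactttcttgtttcc
FKBP10 (A_72_P154676): acaaaactggtgtcagatccctttctcctt
PCOLCE2 (A_72_P371443): caagcatttgctctgaggtgttacagactt
PCOLCE2 (A_72_P365563): ggactagtaagggcatagattatgctgagt

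PLOD2 was higher and PCOLCE2 lower at the anastomosis than in the jugular control on both days, PLOD2 by 2.9-fold on day 14 and 3.11-fold on day 5 and PCOLCE2 by 3.53-fold on day 14 and 3.65-fold on day 5. P4HA1 and FKBP10 were also higher at the anastomosis on day 5, by 1.68-fold and 1.97-fold, and on day 14 neither passed the threshold. Downstream of the anastomosis, PLOD2 was higher and PCOLCE2 lower than in the control on day 5, and no member gene passed on day 14. SERPINH1 and P4HA2 passed in no comparison. No member passed between anastomosis and downstream vein, or between day 14 and day 5 at any site.

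Levels are normalised log2 intensities of a sample's own channel, where a difference of 1 is a factor of 2, and depend on the probe, so they are compared between samples and not between genes. Differences are log2 values ± SE from limma with 4 samples per group, fitted on 36140 probes and adjusted by Benjamini-Hochberg over all of them, with an adjusted p of 0.05 as the threshold. For a gene with several probes the brightest stands for it. Replicate numbers tie the 3 sites of a day together as blocks, and a pair below is a sample and the sample of the same number and day at the other site. Per sample, 56.9% to 80.2% of all probes were well above background. Before normalisation, the median spot signal was 48.5 to 97.8 in the controls (Cy3) and 115.5 to 230.2 in the anastomosis and downstream samples (Cy5), without overlap. Replicates 1 and 2 were quantified with another version of the image extraction protocol than replicates 3 and 4, per the file headers. They had 56.9% to 73.9% of probes well above background, and replicates 3 and 4 had 70.1% to 80.2%. Mean differences from control within replicates 1 and 2 and within replicates 3 and 4 are therefore given for each gene. As these are whole pieces of vein, fewer cells of a type and less RNA per cell cannot be told apart.

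Over all probes, 8.84% passed the threshold between anastomosis and control on day 14 and 20.0% on day 5. Of the 6 member genes, 1 was higher and 1 lower on day 14, where the background was 4.75% higher and 4.09% lower, and 3 were higher and 1 lower on day 5, where it was 9.75% and 10.3%. Downstream against control, 1 member was higher and 1 lower on day 5 with 8.37% of all probes called (3.40% higher, 4.98% lower), and 0 were called on day 14 with 0.905% (0.636% higher, 0.268% lower). The median difference of the 6 genes was 0.56 on day 14 and 0.86 on day 5 for the anastomosis, and over all probes it was 0.01 on both days. Calls depend on the normalisation: with median centring in place of loess, 75.9% of the calls for the anastomosis on day 14 and 81.7% on day 5 were higher, against 53.7% and 48.7% with loess. Median centring also moved the median of all probes to 0.18 and 0.12, so that the values under it, in the closing section, are to be read against that shift.

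**Figure D1:**
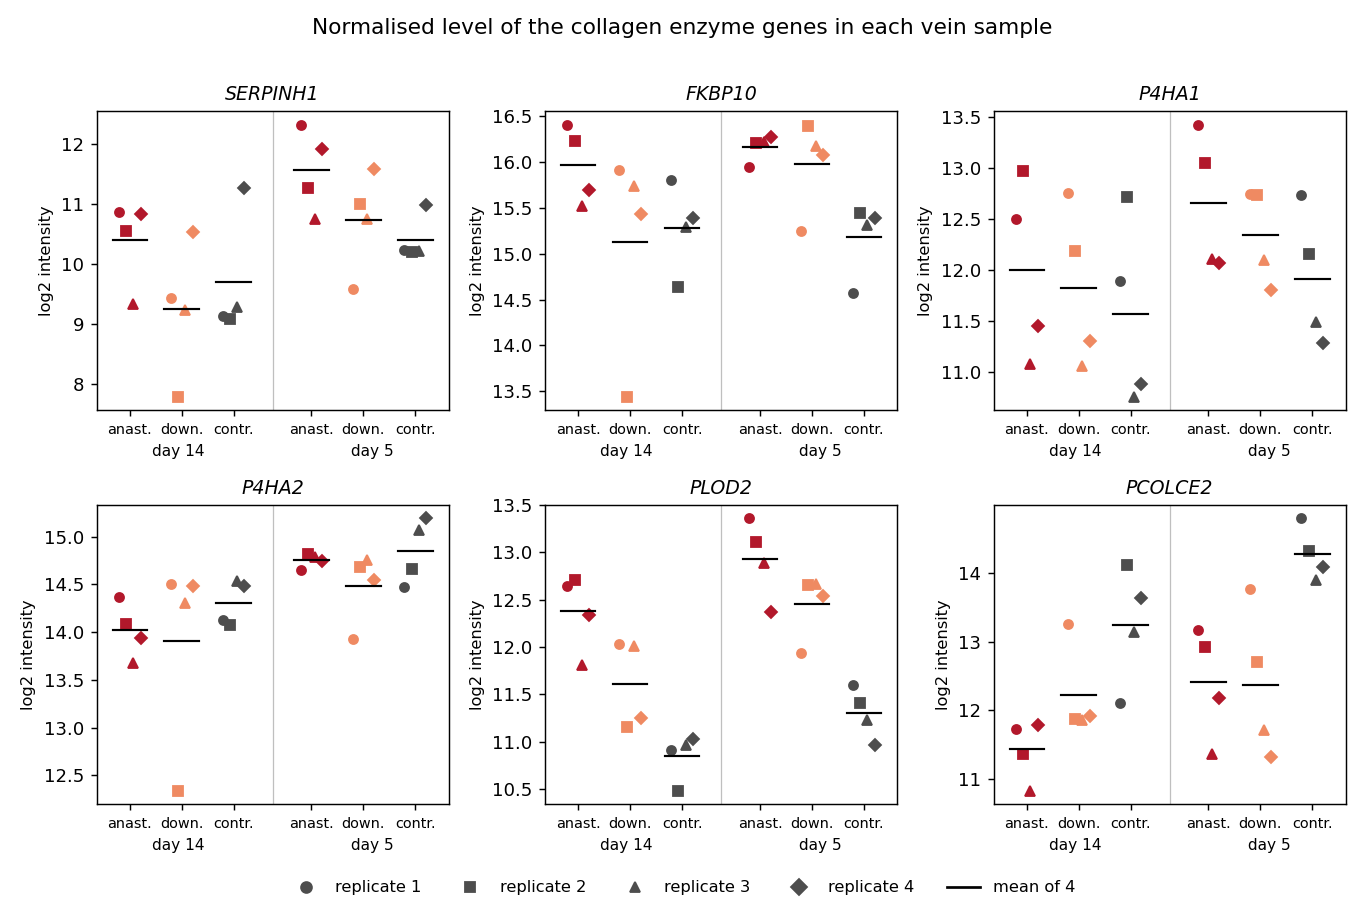
Normalised log2 intensity (vertical axis, scaled to each gene) of the probe that stands for each of the 6 genes, in the anastomosis, downstream and control veins on day 14 (left) and day 5 (right). Each symbol is 1 of the 4 replicates and the line is their mean. The PLOD2 samples of the anastomosis, 11.81 to 13.36, all lie above those of the control, 10.48 to 11.60, and the downstream sample of replicate 2 on day 14 is lowest of all for SERPINH1, FKBP10 and P4HA2.

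The chaperone SERPINH1 was measured by 1 named probe. On day 14 its levels in replicates 1 to 4 were 10.87, 10.56, 9.33 and 10.84 at the anastomosis, 9.44, 7.79, 9.23 and 10.54 downstream, and 9.14, 9.08, 9.29 and 11.28 in the control. On day 5 they were 12.33, 11.28, 10.75 and 11.93 at the anastomosis, 9.59, 11.00, 10.76 and 11.59 downstream, and 10.23, 10.21, 10.22 and 10.99 in the control. The groups overlapped on both days, although the anastomosis sample was above the control of its own array in 4 of 4 pairs on day 5 and 3 of 4 on day 14. Against control, the anastomosis differed by 0.71 ± 0.45 on day 14 (limma adjusted p = 0.359) and by 1.16 ± 0.45 on day 5 (limma adjusted p = 0.0849). The day 5 value passed when only the samples compared were fitted (limma adjusted p = 0.0202) and with median centring (1.82, limma adjusted p = 0.0119). Within replicates 1 and 2 the anastomosis was higher by a mean of 1.61 on day 14 and 1.58 on day 5, and within replicates 3 and 4 the means were -0.20 on day 14 and 0.73 on day 5. With median centring the day 14 value passed too (1.32, limma adjusted p = 0.0485). Downstream and control differed by -0.45 ± 0.45 on day 14 (limma adjusted p = 0.692) and 0.32 ± 0.45 on day 5 (limma adjusted p = 0.705), with means of -0.50 and 0.08 within replicates 1 and 2 and of -0.40 and 0.57 within replicates 3 and 4. In the order of group means, the anastomosis of day 5 was highest (11.57 ± 0.70, SD, n = 4) and the downstream vein of day 14 lowest (9.25 ± 1.13). Every neighbour in that order overlapped with the next in its samples.

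FKBP10, the prolyl isomerase, was measured by 1 named probe. Its day 14 levels were 16.41, 16.23, 15.52 and 15.70 at the anastomosis, 15.91, 13.44, 15.74 and 15.43 downstream, and 15.81, 14.64, 15.29 and 15.39 in the control. Its day 5 levels were 15.95, 16.21, 16.22 and 16.27 at the anastomosis, 15.25, 16.39, 16.18 and 16.08 downstream, and 14.57, 15.45, 15.31 and 15.39 in the control. On day 5 all anastomosis samples lay above all controls, while on day 14 these groups overlapped. The anastomosis exceeded the control by 0.68 ± 0.32 on day 14 (limma adjusted p = 0.208) and by 0.98 ± 0.32 on day 5 (limma adjusted p = 0.0448), in 4 of 4 pairs on both days. The day 5 call lay close to the threshold and was lost without replicate 1, 3 or 4 (limma adjusted p = 0.222, 0.115 and 0.175), with no filter on dim probes (0.0535) and with no replicate block (0.174). Downstream, the difference from control was -0.15 ± 0.32 on day 14 (limma adjusted p = 0.868) and 0.80 ± 0.32 on day 5 (limma adjusted p = 0.139), with 4 of 4 pairs higher on day 5. The downstream value of day 5 passed when only the samples compared were fitted (0.80, limma adjusted p = 0.0265), in the deposited value table (0.90, 0.0320), with replicates 3 and 4 alone (0.78, 0.0248) and with median centring (1.89, 0.00198). The anastomosis value of day 14 also passed with median centring (1.72, limma adjusted p = 0.00217). At the anastomosis the mean differences were 1.09 on day 14 and 1.07 on day 5 within replicates 1 and 2, and 0.26 and 0.89 within replicates 3 and 4. Downstream they were -0.55 on day 14 and 0.81 on day 5 within replicates 1 and 2, and 0.24 and 0.78 within replicates 3 and 4. The downstream sample of replicate 2 on day 14, at 13.44, was well below the other 3 of its group, of which the lowest was 15.43.

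P4HA1, the first of the catalytic subunits of prolyl 4-hydroxylase, had 5 named probes, and A_72_P302594 was the brightest. Its levels on day 14 were 12.50, 12.97, 11.08 and 11.45 at the anastomosis, 12.76, 12.19, 11.06 and 11.31 downstream, and 11.90, 12.72, 10.76 and 10.89 in the control. Day 5 gave 13.43, 13.05, 12.11 and 12.07 at the anastomosis, 12.75, 12.74, 12.10 and 11.81 downstream, and 12.74, 12.16, 11.49 and 11.29 in the control. Replicates 1 and 2 were above replicates 3 and 4 in every group, so that all groups overlapped, and the differences stand out only within the pairs. The anastomosis was above its control in 4 of 4 pairs on each day, by 0.43 ± 0.17 on day 14 (limma adjusted p = 0.121) and 0.74 ± 0.17 on day 5 (limma adjusted p = 0.00674). Within replicates 1 and 2 the means were 0.42 on day 14 and 0.79 on day 5, and within replicates 3 and 4 they were 0.44 and 0.70. The day 5 call was lost with no replicate block (limma adjusted p = 0.528), with the block as a random effect (0.0526) and without replicate 4 (0.0744). On day 14 the value passed with median centring (1.14, limma adjusted p = 0.00147) and without the control of replicate 2 (0.60, limma adjusted p = 0.0366), the second an exclusion chosen after seeing the data because that library stands apart in its tissue markers. Downstream vein exceeded control by 0.26 ± 0.17 on day 14 (limma adjusted p = 0.492) and 0.43 ± 0.17 on day 5 (limma adjusted p = 0.122), with means of 0.17 and 0.30 within replicates 1 and 2 and of 0.36 and 0.56 within replicates 3 and 4. The downstream value of day 5 passed without replicate 1 (0.57, limma adjusted p = 0.0414), with replicates 3 and 4 alone (0.56, 0.0281), with single-channel quantile normalisation (0.52, 0.0495) and with median centring (1.11, 0.00277), and that of day 14 with median centring (0.92, 0.00924).

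Of the 4 other P4HA1 probes, 3 gave differences of 0.73 to 0.76 at the anastomosis on day 5, and the dimmest gave 0.20. The near-identical A_72_P174996 differed from control by 0.43 on day 14 (limma adjusted p = 0.138) and 0.76 on day 5 (limma adjusted p = 0.00783), and shares its bases with the brightest probe, so it is no separate evidence. A_72_P175781 differed by 0.31 on day 14 (limma adjusted p = 0.412) and 0.73 on day 5 (limma adjusted p = 0.0271). A_72_P184041 differed by -0.02 on day 14 (limma adjusted p = 0.979) and 0.75 on day 5 (limma adjusted p = 0.0475). Over the 24 samples the levels of A_72_P175781 followed those of the brightest probe (Pearson r = 0.92), while those of A_72_P184041 did so weakly (r = 0.21). A_72_P184041 read 7.63, 7.97, 8.08 and 8.05 at the anastomosis on day 14, against 8.68, 8.67, 8.91 and 8.98 on day 5, without overlap. In these groups it was not higher in replicates 1 and 2 than in replicates 3 and 4, unlike the brightest probe. The fifth probe, A_72_P133751, is dim (mean 7.43) and the strand it reads is not settled from the annotation. It was the P4HA1 probe that passed downstream on day 5 (0.32 ± 0.08, limma adjusted p = 0.0274), and its anastomosis values were 0.06 on day 14 (limma adjusted p = 0.696) and 0.20 on day 5 (limma adjusted p = 0.0970). Whether the probes read different transcript forms was not tested.

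**Figure D2:**
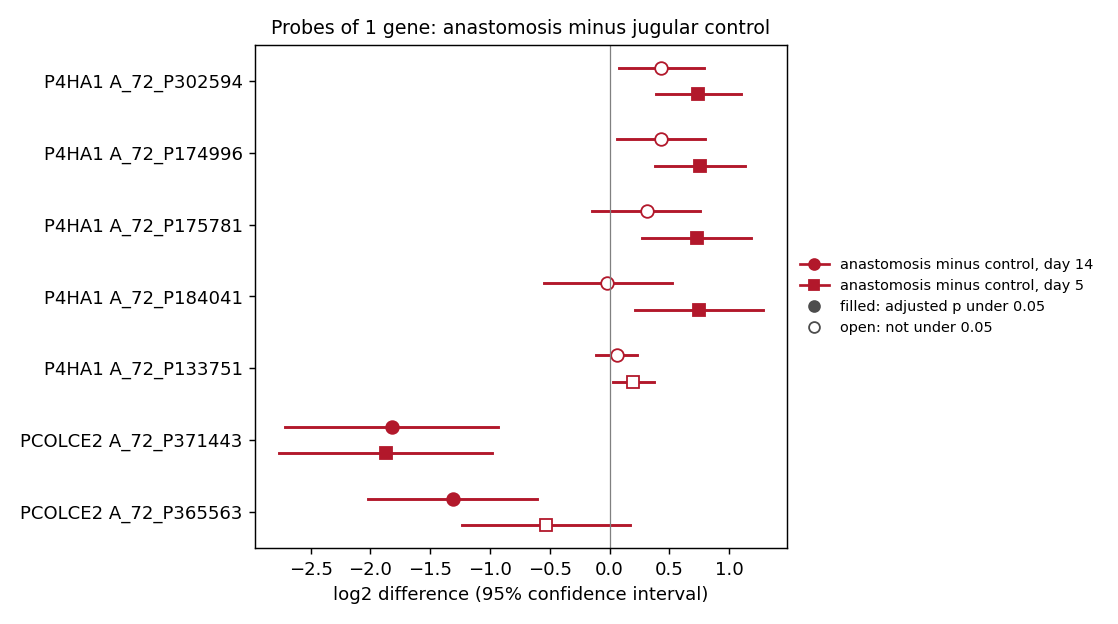
Log2 difference between anastomosis and jugular control (horizontal axis, point with 95% confidence interval) on day 14 (circle) and day 5 (square) for the 5 P4HA1 probes and the 2 PCOLCE2 probes. Filled symbols have a limma adjusted p under 0.05. On day 5, 4 of the P4HA1 probes lie between 0.73 and 0.76, and the fifth at 0.20.

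P4HA2, the other catalytic subunit, passed the threshold in no comparison between sites. On day 14 the levels were 14.37, 14.09, 13.68 and 13.94 at the anastomosis, 14.50, 12.34, 14.31 and 14.48 downstream, and 14.13, 14.07, 14.54 and 14.48 in the control. On day 5 they were 14.65, 14.82, 14.79 and 14.74 at the anastomosis, 13.93, 14.68, 14.76 and 14.55 downstream, and 14.47, 14.66, 15.07 and 15.19 in the control. The anastomosis of day 5 was the tightest of the groups, and it lay inside the range of its control. Between anastomosis and control the difference was -0.29 ± 0.31 on day 14 (95% interval -0.94 to 0.37, limma adjusted p = 0.621) and -0.10 ± 0.31 on day 5 (-0.75 to 0.56, limma adjusted p = 0.887). The upper bounds lie below the P4HA1 estimates of 0.43 and 0.74, whose own intervals begin at 0.08 on day 14 and 0.39 on day 5 and so overlap with these, and the difference between the subunits was not tested. The sign for P4HA2 on day 5 turned with median centring (1.04, limma adjusted p = 0.0368). Replicates 1 and 2 gave means of 0.12 on day 14 and 0.17 on day 5, and replicates 3 and 4 gave -0.70 and -0.36, of which the day 14 value passed when those replicates were fitted alone (limma adjusted p = 0.0223). Downstream, it differed from control by -0.40 ± 0.31 on day 14 (limma adjusted p = 0.580) and by -0.37 ± 0.31 on day 5 (limma adjusted p = 0.493). There the means were -0.69 and -0.26 within replicates 1 and 2, and -0.12 and -0.47 within replicates 3 and 4.

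For the lysyl hydroxylase PLOD2 no sample of either graft site fell within the range of its control. Its levels on day 14 were 12.65, 12.71, 11.81 and 12.34 at the anastomosis, 12.03, 11.15, 12.01 and 11.25 downstream, and 10.91, 10.48, 10.96 and 11.03 in the control. On day 5 the anastomosis had 13.36, 13.11, 12.89 and 12.37, the downstream vein 11.94, 12.66, 12.67 and 12.54, and the control 11.60, 11.41, 11.23 and 10.96. The anastomosis and the downstream vein lay above the control on each day, and in 4 of 4 pairs. At the anastomosis the excess was 1.53 ± 0.26 on day 14 (2.9-fold, limma adjusted p = 0.00476) and 1.63 ± 0.26 on day 5 (3.11-fold, limma adjusted p = 0.00110). In the downstream vein it was 0.77 ± 0.26 on day 14 (1.7-fold, limma adjusted p = 0.180) and 1.15 ± 0.26 on day 5 (2.23-fold, limma adjusted p = 0.0192). Anastomosis exceeded downstream vein by 0.77 ± 0.26 on day 14 (limma adjusted p = 0.233) and by 0.48 ± 0.26 on day 5 (limma adjusted p = 0.545), neither of which passed. Within replicates 1 and 2 the anastomosis was above control by a mean of 1.99 on day 14 and 1.73 on day 5, and within replicates 3 and 4 by 1.08 and 1.54. Downstream the means were 0.90 on day 14 and 0.79 on day 5 within replicates 1 and 2, and 0.64 and 1.52 within replicates 3 and 4.

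The PLOD2 call at the anastomosis on day 5 held when any replicate was left out. On day 14 the anastomosis call was lost without replicate 4 (limma adjusted p = 0.0559) and when only the samples compared were fitted (0.0891). It was also lost with replicates 3 and 4 alone (1.08, limma adjusted p = 0.0666). The downstream call on day 5 was lost without replicate 2, 3 or 4 (limma adjusted p = 0.0927, 0.121 and 0.173), with differences of 1.13, 1.06 and 1.01. In those fits 394, 10 and 3 of all probes were called. With median centring the downstream value of day 14 passed (1.40, limma adjusted p = 0.00719). Group means fell in the order anastomosis day 5 (12.93 ± 0.42, SD, n = 4), downstream day 5 (12.45 ± 0.35), anastomosis day 14 (12.38 ± 0.41), downstream day 14 (11.61 ± 0.48), control day 5 (11.30 ± 0.27) and control day 14 (10.84 ± 0.25). Neighbours in that order overlapped, and the gaps from anastomosis day 5 to downstream day 5 (0.48), from anastomosis day 14 to downstream day 14 (0.77) and from control day 5 to control day 14 (0.46) exceeded the larger SD of the groups compared.

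PCOLCE2, the secreted enhancer of procollagen C-terminal processing, went the other way. Its brighter probe read 11.73, 11.37, 10.83 and 11.79 at the anastomosis on day 14, 13.25, 11.88, 11.86 and 11.91 downstream, and 12.10, 14.11, 13.14 and 13.64 in the control. On day 5 it read 13.17, 12.92, 11.36 and 12.18 at the anastomosis, 13.76, 12.70, 11.71 and 11.32 downstream, and 14.79, 14.32, 13.89 and 14.09 in the control. Both graft sites lay below the control without overlap on day 5, and so did the anastomosis on day 14, whereas the downstream group of day 14 overlapped with its control. The anastomosis was lower in 4 of 4 pairs on each day, with differences of -1.82 ± 0.42 on day 14 (limma adjusted p = 0.0173) and -1.87 ± 0.42 on day 5 (limma adjusted p = 0.00653). Downstream, they were -1.02 ± 0.42 on day 14 (limma adjusted p = 0.261) and -1.90 ± 0.42 on day 5 (limma adjusted p = 0.0169). In replicate 1 of day 14 the downstream sample was above its control by 1.15, and the other 3 pairs were lower by 1.28 to 2.23. Within replicates 1 and 2 the anastomosis means were -1.56 on day 14 and -1.51 on day 5, and within replicates 3 and 4 they were -2.08 and -2.22. Downstream they were -0.54 on day 14 and -1.33 on day 5 within replicates 1 and 2, and -1.50 and -2.48 within replicates 3 and 4. All 3 calls were lost with median centring (differences of -1.08, -0.93 and -1.11). Without replicate 3 or 4 the day 5 call at the anastomosis was lost (limma adjusted p = 0.0739 and 0.0519), without replicate 2, 3 or 4 the day 14 one (0.0816, 0.104 and 0.131), and without replicate 2, 3 or 4 the downstream one of day 5 (0.0757, 0.145 and 0.178). These fits called 4292 and 2793 of all probes at the anastomosis on day 5, 3237, 1824 and 147 on day 14, and 394, 10 and 3 downstream on day 5. The downstream value of day 14 passed without replicate 1 (-1.75, limma adjusted p = 0.0365). With no replicate block the limma adjusted p was 0.0734 at the anastomosis on day 14 and 0.0705 downstream on day 5.

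The second PCOLCE2 probe, A_72_P365563, named only through a locus number of an older annotation, was much dimmer (mean 7.94, against 12.66 for the brighter). At the anastomosis it differed from control by -1.31 ± 0.33 on day 14 (limma adjusted p = 0.0255) and by -0.53 ± 0.33 on day 5 (limma adjusted p = 0.306). Downstream it differed by -1.19 ± 0.33 on day 14 (limma adjusted p = 0.107) and -1.04 ± 0.33 on day 5 (limma adjusted p = 0.0645). All of these had the direction of the brighter probe, and the levels of the pair correlated at r = 0.72 over the 24 samples.

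**Figure D3:**
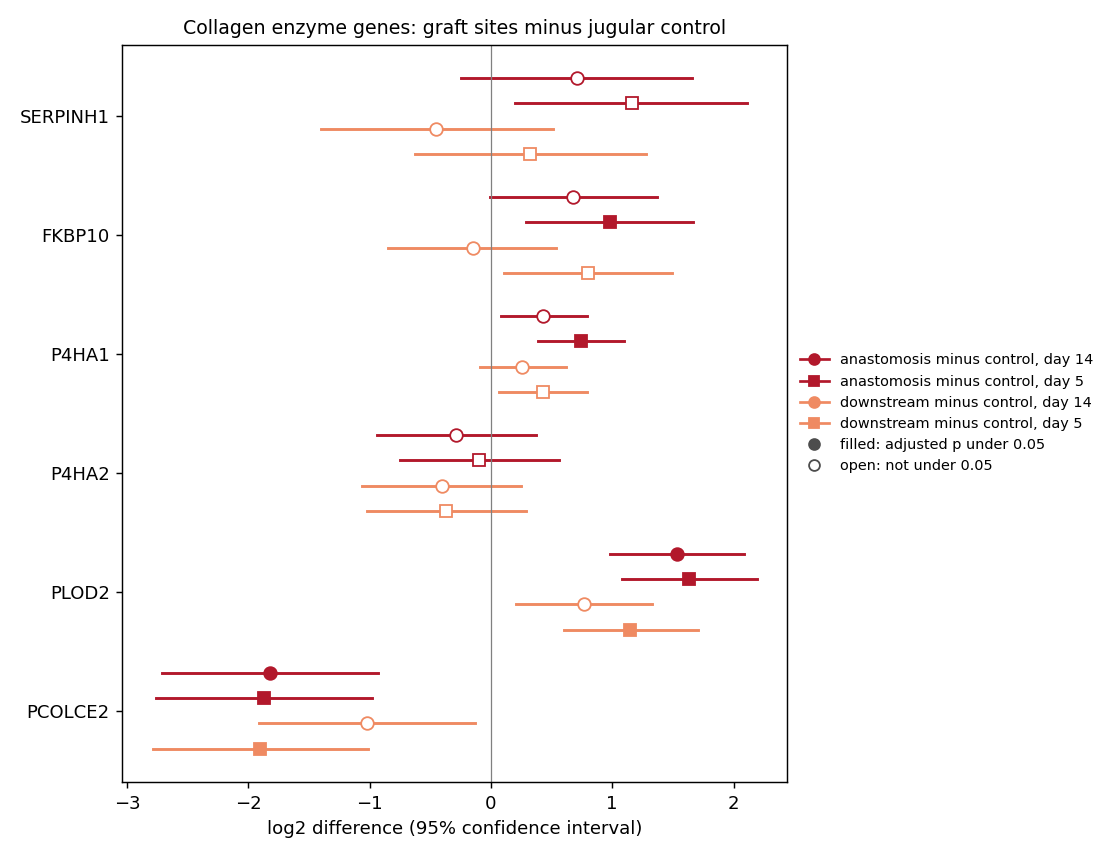
Log2 difference between a graft site and the jugular control (horizontal axis, point with 95% confidence interval) for the 6 genes, with the anastomosis in red, the downstream vein in orange, day 14 as circles and day 5 as squares. Filled symbols have a limma adjusted p under 0.05. PLOD2 lies above 0 and PCOLCE2 below 0 in all 4 comparisons, and the P4HA2 intervals all include 0.

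Timing was examined by setting day 14 against day 5 at each site, over 8 samples with no block. At the anastomosis 2 of 36140 probes were called (0.00553%), 1 higher and 1 lower (0.00277% each) and neither of them a member, and 0 were called in the downstream vein and in the control. At an unadjusted p under 0.05 stood 3144 probes at the anastomosis (8.70%), 1633 downstream (4.52%) and 678 in the control (1.88%). The 6 genes had lower means on day 14 than on day 5 at the anastomosis, with fitted differences of -1.17 ± 0.43 for SERPINH1 (unadjusted p = 0.0261, limma adjusted p = 0.472), -0.98 ± 0.40 for PCOLCE2 (limma adjusted p = 0.530), -0.73 ± 0.16 for P4HA2 (unadjusted p = 0.00153, limma adjusted p = 0.289), -0.66 ± 0.48 for P4HA1 (limma adjusted p = 0.800), -0.56 ± 0.27 for PLOD2 (limma adjusted p = 0.627) and -0.20 ± 0.21 for FKBP10 (limma adjusted p = 0.900). For P4HA2 the day 14 samples, 13.68 to 14.37, lay below those of day 5, 14.65 to 14.82, without overlap. The P4HA1 probe A_72_P184041 had the smallest unadjusted p of the named probes (-0.88 ± 0.15, unadjusted p = 2.79e-04, limma adjusted p = 0.201).

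The jugular control also had lower means on day 14 for 5 of the 6 genes. There the differences were -1.03 ± 0.42 for PCOLCE2, -0.72 ± 0.49 for SERPINH1, -0.54 ± 0.20 for P4HA2, -0.46 ± 0.19 for PLOD2 and -0.35 ± 0.49 for P4HA1, all with a limma adjusted p of 1.00, and FKBP10 stood at 0.10 ± 0.29. In the downstream vein SERPINH1 differed by -1.49 ± 0.61, FKBP10 by -0.85 ± 0.54 and PLOD2 by -0.84 ± 0.27, again with a limma adjusted p of 1.00. The change of the site differences between the days removes what all sites of a day share, a constant dye shift included. For PLOD2 the change of anastomosis against control was -0.10 ± 0.37 (95% interval -0.89 to 0.69, limma adjusted p = 0.980), and for PCOLCE2 it was 0.04 ± 0.59 (-1.21 to 1.30, limma adjusted p = 0.993). For SERPINH1 it was -0.45 ± 0.63 (limma adjusted p = 0.920) and for P4HA1 -0.31 ± 0.24 (limma adjusted p = 0.792). Downstream against control, FKBP10 had the change with the smallest unadjusted p of the 6 (-0.95 ± 0.46, unadjusted p = 0.0555, limma adjusted p = 0.661). Of all probes, 0 were called in any of these 3 changes, while 3146, 2750 and 1530 had an unadjusted p under 0.05. So a call on day 5 and none on day 14, as for P4HA1 and FKBP10, is not shown to be a difference between the days.

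**Figure D4:**
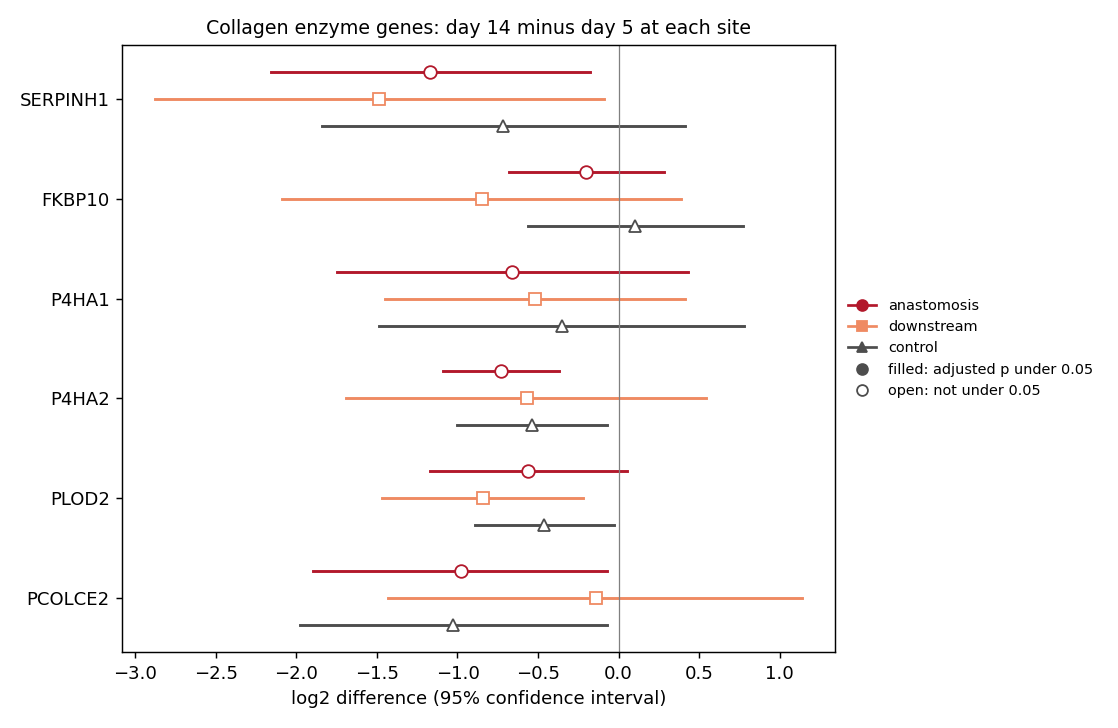
Log2 difference between day 14 and day 5 (horizontal axis, point with 95% confidence interval) for the 6 genes at the anastomosis (red circles), the downstream vein (orange squares) and the control (grey triangles). Open symbols have a limma adjusted p of 0.05 or more, which is all of them. At the anastomosis the points lie between -1.17 and -0.20, and in the control between -1.03 and 0.10.

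Anastomosis and downstream vein, which share a dye but not an array, were set against each other on day 14 and day 5. On either day 0 of 36140 probes were called, with 5125 and 3678 at an unadjusted p under 0.05. On day 14 the anastomosis was above the downstream vein by 1.15 ± 0.45 for SERPINH1 (4 of 4 pairs, limma adjusted p = 0.273) and by 0.83 ± 0.32 for FKBP10 (3 of 4 pairs, limma adjusted p = 0.274), and PCOLCE2 differed by -0.80 ± 0.42 (4 of 4 pairs and no overlap, limma adjusted p = 0.398). On day 5 the values were 0.83 ± 0.45 for SERPINH1 (limma adjusted p = 0.536), 0.31 ± 0.17 for P4HA1 (limma adjusted p = 0.533) and 0.04 ± 0.42 for PCOLCE2 (limma adjusted p = 0.985). The low downstream sample of replicate 2 enters the day 14 values, and without it no member call changed.

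The 9 probes that match only part of a member's protein name are 7 for P4HA2, 1 for SERPINH1 and 1 for PCOLCE2, with mean levels between 6.34 and 12.08. None was called in the 12 comparisons, and the lowest limma adjusted p was 0.0544. Which gene they read is not settled by their descriptions, so they are not counted among the members.

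The rest of the pathway could be followed only in part. Of 33 other genes of collagen biosynthesis, 5 were named and measured: ADAMTS2, which removes N-terminal propeptides, LOXL3, a lysyl oxidase, and MIA2, SEC23A and SEC24D of the export of large cargo from the endoplasmic reticulum. SEC24D was higher at the anastomosis than in the control on day 5 (0.74 ± 0.22, limma adjusted p = 0.0267). MIA2 passed there too (0.45 ± 0.11, limma adjusted p = 0.0126), with a probe near its floor that was well above background in 3 of 4 anastomosis and 2 of 4 control samples, and 0 of the 5 were called in the other comparisons. The other hydroxylases and lysyl oxidases of the list, among them P4HB, PLOD1, PLOD3 and LOX, had no named probe among those tested. Of 10 general chaperones and folding factors of the endoplasmic reticulum, 1 was higher and 0 lower at the anastomosis on day 14, and 7 were higher and 1 lower on day 5. CRELD2 (1.72 ± 0.29, limma adjusted p = 0.00147), CALR (1.19 ± 0.21, limma adjusted p = 0.00189) and HSPA5 (1.13 ± 0.25, limma adjusted p = 0.00607) had the largest rises of the list on day 5, and CALR was the one on day 14 (0.88 ± 0.21, limma adjusted p = 0.0216). XBP1, a transcription factor of the unfolded protein response, was the one lower on day 5 (-0.61 ± 0.18, limma adjusted p = 0.0270). The median of this list was 0.20 on day 14 and 0.89 on day 5.

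The collagens that the enzymes act on did not move as a block. Of 15 measured chains, 3 were higher and 0 lower at the anastomosis on day 14, with a median of 0.66, and 1 was higher and 1 lower on day 5, with a median of 0.23. The chains of type I and III collagen passed on neither day: COL1A1 differed by -0.08 on day 14 and -0.50 on day 5 (limma adjusted p = 0.928 and 0.397), COL1A2 by 0.38 and -0.31 (limma adjusted p = 0.569 and 0.625), and COL3A1 by -0.39 and 0.23 (limma adjusted p = 0.191 and 0.441). COL8A1, a network-forming chain of vessel walls, was higher on day 14 (2.84 ± 0.51, limma adjusted p = 0.00630). COL11A1, a minor fibrillar chain, was at least 9.94-fold higher there (limma adjusted p = 0.00187), as its probe was not well above background in the 4 control samples. COL5A3 was higher on day 14 (0.98 ± 0.27, limma adjusted p = 0.0390) and on day 5 (1.01 ± 0.27, limma adjusted p = 0.0180), and COL14A1, a fibril-associated chain, was lower on day 5 (-1.98 ± 0.37, limma adjusted p = 0.00240).

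Markers of the cell types that a vein can hold moved with the same comparisons. The mean level of 11 contractile smooth muscle genes on day 14 was 13.09 to 13.62 at the anastomosis and 12.79 to 14.71 downstream, against 12.42 to 15.79 in the control. On day 5 it was 12.88 to 14.29 at the anastomosis (8 of 11 lower, 0 higher) and 12.63 to 14.49 downstream (4 lower, 0 higher), against 15.20 to 15.85 in the control. The smooth muscle level of both graft sites thus lay below the control without overlap on day 5, and overlapped with it on day 14.

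The 7 fibroblast genes went both ways, so their mean hides them. At the anastomosis on day 14, 3 were higher (POSTN 2.95, DPP4 1.66 and THY1 1.12) and SCARA5 was lower (-3.67), with limma adjusted p of 0.00395, 0.0147, 0.0458 and 0.00172. On day 5, POSTN (1.49) and DPP4 (1.17) were higher and SCARA5 (-5.84), MFAP5 (-2.30) and CD34 (-0.79) lower, with limma adjusted p of 0.0430, 0.0352, 1.03e-04, 0.00207 and 0.0130. Downstream on day 5, SCARA5 (-3.13, limma adjusted p = 0.00581) and MFAP5 (-1.80, limma adjusted p = 0.0208) were lower. POSTN encodes a matrix protein and THY1 a surface marker of fibroblasts. The mean of the list was 13.14 to 13.49 at the anastomosis and 12.98 to 13.50 in the control on day 14, and 12.22 to 12.81 and 13.37 to 13.55 on day 5.

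The 8 macrophage and leukocyte genes averaged 11.42 to 12.85 at the anastomosis (3 higher) and 10.83 to 12.27 downstream on day 14, against 10.59 to 11.33 in the control. On day 5 they averaged 11.81 to 12.42 at the anastomosis (4 higher) and 11.52 to 12.14 downstream (3 higher), against 10.65 to 11.15 in the control. Cell cycle genes on day 14 averaged 8.51 to 10.37 at the anastomosis and 8.13 to 9.66 downstream, against 8.18 to 9.67 in the control, and 0 of 8 were called at either site. On day 5 the cell cycle genes averaged 10.90 to 11.77 at the anastomosis (8 of 8 higher) and 9.26 to 10.71 downstream (7 of 8 higher), against 8.28 to 8.66 in the control. Both lists lay above the control without overlap on day 5 at both graft sites.

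Of 7 endothelial genes, 2 were higher at the anastomosis on day 14 and 3 on day 5, and 1 and 3 were higher downstream, with 0 lower. Of 9 skeletal muscle genes, 2 were lower at the anastomosis on day 14 and 3 on day 5, with means of 6.75 to 7.18 against 7.48 to 8.06 in the control on day 14 and of 6.90 to 7.02 against 7.45 to 7.75 on day 5. Of 8 adipocyte genes 0 were called at either site. Their mean on day 14 was 9.72 to 14.27 at the anastomosis and 8.80 to 14.61 in the control, and on day 5 it was 8.54 to 9.94 at the anastomosis and 9.47 to 11.24 in the control. The control with 14.61, replicate 2, is also the one with the lowest smooth muscle level, 12.42. The downstream sample with 14.01, also replicate 2, had the lowest fibroblast (12.49) and smooth muscle (12.79) levels of its group. It is the sample that was low for SERPINH1, FKBP10 and P4HA2. The anastomosis sample with 14.27, replicate 3, was the lowest of its group for all 6 member genes, and the others of that group had adipocyte means of 9.72 to 10.66. On day 14 the mean differences within replicates 3 and 4 include that sample. Those within replicates 1 and 2 include the control and downstream samples of replicate 2. The day 14 split by replicates therefore does not separate the extraction protocol from these tissue differences. At the anastomosis on day 5, 1 adipocyte and 1 skeletal muscle marker were not well above background in any sample, and in every other list and group each marker was in at least 1. The part of these shifts in the members' differences was not tested.

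For each member, the genes with the most similar levels over the 24 samples were sought among 5805 named genes, as a description, since the samples share arrays and blocks. PLOD2 was most like MTHFD1L (Pearson r = 0.95, Spearman rho = 0.92), INTS10 (0.93, 0.90) and CD63 (0.93, 0.91). The genes nearest to P4HA1 were HSPA13 (0.93, 0.96), ACTL6A (0.93, 0.90) and TMEM5 (0.92, 0.90), and for SERPINH1 they were TMED9 (0.89, 0.88), GPI (0.88, 0.87) and SLC39A1 (0.87, 0.81). FKBP10 had RABEP2, MAGED1 and GUSB at r = 0.88 each (rho 0.90, 0.89 and 0.88). Nearest to P4HA2 stood PPIC (0.84, 0.85), PRDX4 (0.78, 0.78) and RRAGA (0.77, 0.66), and to PCOLCE2 ARID2 (0.85, 0.87), SELENOK (0.85, 0.89) and PPHLN1 (0.84, 0.84). Among the members themselves, FKBP10 and PLOD2 correlated at r = 0.69, SERPINH1 and P4HA2 at 0.67, SERPINH1 and FKBP10 at 0.66, and PCOLCE2 and PLOD2 at -0.44.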

How the data were processed

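Total RNA of 24 vein samples was labelled for 2 colours and hybridised to 16 Agilent pig arrays, and, per the file headers, quantified with version 10.5.1.1 of Feature Extraction. The deposited scanner files gave mean and background intensity values on a linear scale, not normalised, per the file headers. The authors also deposited a table of log2 values, made in a way that the sources used here do not state, and which correlated at 0.962 to 0.994 with the processed signals. Channels were corrected with normexp (offset 50), normalised by loess and Aquantile in limma 3.58.1 (R 4.3.3), and each sample was the log2 value of its own channel (8 channels without a labelled sample were left out), with outlier spots removed and spots of a probe averaged. Probes well above background in at least 4 samples were tested (36140 of 43603).

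Symbols came from the files and from RefSeq tables of Sscrofa11.1 for 9079 probes (20.8%, 6142 symbols). Sites were compared in 1 limma fit (lmFit, eBayes) over the 24 samples, in which each group had a term and each replicate number within a day was a block (8 blocks, 12 residual degrees of freedom), and days on the 8 samples of a site without a block, in 12 comparisons. Same-numbered samples of a day deviated together (r = 0.17 to 0.81, 24 of 24 pairs over 0.1). Samples of a site and number on the 2 days did so in 11 of 12 pairs. All p-values were two-sided, with Benjamini-Hochberg adjustment over the tested probes, and the fit was tested on simulated data. Alternatives changed the background correction, normalisation, starting values, filter, block, batch, samples in the fit and replicates. The members and gene lists were chosen with earlier results of these data known. Named were all member probes, called list genes among the 3 largest rises or falls of a list, COL1A1, COL1A2 and COL3A1, and the 3 genes most like each member.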

Additional observations from a re-analysis of the deposited data

Results flagged for a closer look

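In 6 of the 36 groups of 4 samples, 1 sample lay so far from the other 3 that its gap to the nearest took up most of the group's range, past the limit of Dixon's test. Chance alone does this in about 1 of 20 groups. In the downstream vein on day 14, P4HA2 of replicate 2 was low at 12.34, a sample that was also lowest for SERPINH1 and FKBP10, and PCOLCE2 of replicate 1 was high at 13.25. FKBP10 of replicate 1 was low at 15.95 at the anastomosis and at 14.57 in the control of the same array on day 5. SERPINH1 of control replicate 4 was high on both days, at 11.28 on day 14 and 10.99 on day 5.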

How the results depend on the processing

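With 6 genes in 12 comparisons there were 72 gene values. All 72 kept their side of the threshold with no background correction, with processed signals and with a filter of at least 12 samples. So did 71 with single-channel quantile normalisation, 71 with no filter on dim probes and 69 with the deposited value table. These counts do not follow the sign of values that did not pass. Median centring moved 12 of them across the threshold: 8 newly passed, 3 were lost, and P4HA2 at the anastomosis on day 5 passed with its sign turned, at 1.04. It called 4 genes at the anastomosis on day 14 and 2 downstream on day 14 (PLOD2 and P4HA1), where 2 and 0 were called before. Under it 84.1% of the downstream calls on day 5 and 78.6% of those on day 14 were higher, against 40.6% and 70.3%, and the medians of all probes there were 0.12 and 0.21; the value table gave 51.1% on day 14. The value table called 2 genes between the days at the anastomosis, P4HA1 (-0.83) and PCOLCE2 (-0.98), where 0 were called, with 3846 probes called in place of 2.

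Counts of called genes when each replicate was left out ranged from 1 to 4 of a full count of 4 at the anastomosis on day 5, from 0 to 2 of 2 on day 14, from 0 to 3 around a full count of 2 downstream on day 5 and from 0 to 1 downstream on day 14, where PCOLCE2 passed without replicate 1 (-1.75, adjusted p = 0.0365). Calls over all probes moved as well. Downstream on day 5 they fell from 3025 to 394, 10 and 3 without replicate 2, 3 and 4, and were 2044 higher and 2892 lower without replicate 1. At the anastomosis on day 14 they went from 3195 to 3237, 1824 and 147 without replicate 2, 3 and 4. On day 5 they went from 7232 to 4292 and 2793 without replicate 3 and 4. Replicates 1 and 2 alone gave 0 in all 3 comparisons with calls. There 2 of all probes were called at the anastomosis on day 5, 1 on day 14 and 0 downstream on day 5. Replicates 3 and 4 alone gave 4 downstream on day 5, with 3743 of all probes called. With no replicate block the counts were 2 and 1 at the anastomosis on day 5 and day 14 and 1 downstream on day 5, and with only the samples compared 0 at the anastomosis on day 14. With no block 2595, 597 and 360 of all probes were called in that order, and 62 with only the samples compared. The replicate block over the 2 days, or the batch as a term, changed 0 calls between days. The exclusions of the downstream and of the control sample of replicate 2 on day 14 were chosen after seeing the data. Causes of these changes were not tested, and the fits that left samples out also had fewer samples. Arrays, replicates and probe number limit precision: 6 genes rest on 4 samples a group, at 56.9% to 80.2% of probes above background.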

Other observations

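P4HA1 and PLOD2 are known targets of the hypoxia response, and SERPINH1 of the heat shock response, so lists of both were counted. Whether either response had a part in the members' differences was not tested, and SERPINH1 itself passed in no comparison. Of 13 measured genes of hypoxia and glycolysis, 0 were higher and 1 lower at the anastomosis than in the control on day 14, and 4 were higher and 2 lower on day 5. Those higher on day 5 included LDHA of glycolysis (1.38 ± 0.44, limma adjusted p = 0.0376), the glucose transporter SLC2A1 (1.28 ± 0.33, limma adjusted p = 0.0149) and the glycolytic enzyme TPI1 (1.04 ± 0.32, limma adjusted p = 0.0324). EGLN1, the prolyl hydroxylase that marks hypoxia-inducible factor for degradation, was lower on day 5 (-0.99 ± 0.20, limma adjusted p = 0.00440), as was MXI1, an antagonist of MYC (-1.19 ± 0.18, limma adjusted p = 8.91e-04). MXI1 was also the gene lower on day 14 (-0.84 ± 0.18, limma adjusted p = 0.0133). The list's median was 0.13 on day 14 and 0.16 on day 5, against 0.01 over all probes.

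Of 8 measured heat shock genes, 0 were higher and 3 lower at the anastomosis on day 14, and 0 higher and 2 lower on day 5, with medians of -0.87 and -0.63. The inducible chaperone HSPA6 differed by -3.29 ± 0.79 on day 14 (limma adjusted p = 0.0221) and by -2.84 ± 0.79 on day 5 (limma adjusted p = 0.0213). DNAJB1, a co-chaperone of HSP70, differed by -2.63 ± 0.64 on day 14 (limma adjusted p = 0.0229) and by -2.28 ± 0.64 on day 5 (limma adjusted p = 0.0219). For HSPA6 and DNAJB1 the anastomosis and control samples overlapped on both days, and DNAJB1 was lower in 3 of 4 pairs on day 14. Downstream, 0 of the 8 were called on either day, but the medians there were -0.99 on day 14 and -0.52 on day 5. Of all probes, 0.905% were called downstream on day 14 and 8.37% on day 5. With 4 samples a group and one dye per site, the dye and the site cannot be told apart in these values.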
